A study of Mus musculus with 116 samples.

Results

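RNA from FDB1 cells with the V449E receptor mutant was compared on the same arrays with RNA from FDB1 cells with the FI-Delta receptor mutant, both taken 12 hours after IL-3 was removed. FDB1 is a mouse myeloid cell line that needs an added growth factor to live. The comparison was made on 4 arrays, which are 2 of the 58 dye-swapped pairs of a factorial time course, namely those whose labels pair the V449E RNA of 12 hours with the FI-Delta RNA of the same time. Each of 2 replicate numbers has 2 of these arrays with the dyes exchanged. Both lines were grown in medium with 10% serum and 500 U/mL of mouse IL-3, washed 3 times at 0 hours and kept without factor for 12 hours, so neither line received GM-CSF. The V449E and FI-Delta RNAs of 0, 6, 24, 48 and 72 hours, and parental FDB1 cells after 12 hours in GM-CSF, are used beside them. The labels do not say whether a line was a clone or a pool, nor whether replicate numbers stand for separate cultures. The p-values therefore reflect spread between replicate RNAs of this series alone, which may be technical. That spread is pooled over all conditions of the series, so it is not that of the 2 lines at 12 hours alone.

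IL-3 and GM-CSF signal through a shared receptor subunit, the common beta chain, which passes the signal on through the kinase JAK2, the transcription factor STAT5 and the ERK kinases. V449E is a substitution in the membrane-spanning part of that chain and FI-Delta is a mutant with a change in its extracellular part, and both make the receptor active without ligand. In FDB1 cells IL-3 sustains proliferation, whereas GM-CSF leads to granulocyte and macrophage differentiation, during which neutrophil precursors fill their granules first with primary and later with secondary and tertiary granule proteins.

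At 12 hours, genes of late neutrophil granules, calprotectin and the stefins were much lower in V449E cells than in FI-Delta cells, and S100a10 and MHC class II genes were higher. Of 20242 features tested with limma, 86 were higher in V449E cells (0.425%) and 137 were lower (0.677%), so that 223 passed in all (1.1%). At least 2-fold differences were seen for 5 of the higher and 37 of the lower features. Among features with a single gene symbol, 75 were higher and 128 were lower. The remaining 20 carried no single symbol, 11 of them higher and 9 lower. All differences below are V449E minus FI-Delta on the log2 scale. The standard error (SE) is that of the fit with n = 2 RNAs per line, with its spread pooled over all 36 RNAs of the series. The median difference over all features was -0.00528 and the median of its SE was 0.0891. The number passing fell to 72 without V449E replicate 2 and to 75 without FI-Delta replicate 1. Without FI-Delta replicate 2, 35 features were higher and 81 lower.

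The values behind these calls are array ratios, so they compare the lines and give no absolute level of a gene, and markers of the cell type could not be checked for presence. The direction, V449E over FI-Delta, rests on reading each deposited ratio with Cy5 on top, as is likely although no source states it. The 2 dye-swapped arrays of a replicate correlated across features at r = -0.137 in replicate 1 and at r = -0.423 in replicate 2 before signs were turned. The means of the dye-swapped arrays then correlated between the replicates at r = 0.497 across features. All 223 features that passed had the same sign in both replicate means, and 214 had it on all 4 arrays. They were chosen by a fit that uses these same arrays, which favours such agreement, so both counts are descriptions. Of all 15096 symbols, 4516 were above 0 in both replicate means and 4679 were below 0 in both.

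**Figure D1:**
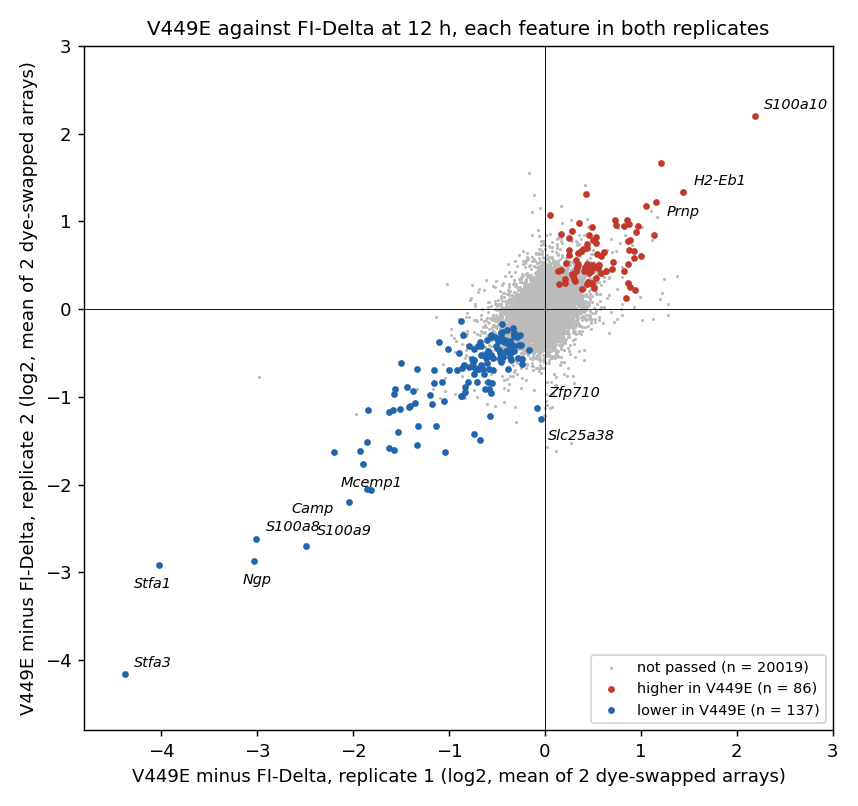
Each point is 1 of 20242 features, plotted by its V449E minus FI-Delta difference (log2, mean of 2 dye-swapped arrays) in replicate 1 on the horizontal axis and replicate 2 on the vertical axis. The 137 lower features (blue) reach -4.38 in replicate 1 and -4.16 in replicate 2 (Stfa3), and the 86 higher features (red) reach 2.19 and 2.20 (S100a10); Slc25a38 and Zfp710 lie close to 0 in replicate 1.

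The stefins, small inhibitors of cysteine proteases, held the lowest values. Stfa3 gave -4.78 and -3.98 on the arrays of replicate 1 and -3.59 and -4.73 on those of replicate 2. Its fitted difference was -4.03 (SE 0.40, adjusted p = 3.35e-06), which is 16.3-fold lower in V449E cells. Relative to the mean of the 18 RNAs of the replicate, its level was -2.30 and -2.76 in the V449E RNAs, against 1.99 and 1.01 in the FI-Delta RNAs. Stfa1 gave -4.27, -3.76, -2.87 and -2.96, with a fitted difference of -3.43 (SE 0.41). Stfa2 was at -1.44 (SE 0.17) and the related gene Csta2, picked after its value was seen, at -0.69 (SE 0.16). Stefin genes are near-identical copies, so their probes may share signal and the size of each difference is uncertain.

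S100a8 and S100a9 encode the calcium-binding subunits of calprotectin, the main cytosolic protein of neutrophils. S100a9 gave -2.89, -2.10, -2.86 and -2.54. Its fitted difference was -2.63 (SE 0.48, adjusted p = 0.00566) and that of S100a8 was -2.60 (SE 0.44, adjusted p = 0.00217). The S100a8 level was -1.59 and -1.71 in the V449E RNAs, against 1.27 and 0.63 in the FI-Delta RNAs. Of other S100 genes, picked after their values were seen, S100a6 was lower by less (-0.69, SE 0.11), as was S100a11 (-0.42, SE 0.09). S100a10 was the highest gene of the comparison. The calls of S100a8 and S100a9 were lost without V449E replicate 2 and without FI-Delta replicate 1, with 1 RNA then left in that line.

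The granule proteins proper followed. Ngp, the neutrophilic granule protein, was at -2.88 (SE 0.52, adjusted p = 0.00504), with array values between -3.42 and -2.64. Camp, the precursor of the antimicrobial peptide cathelicidin, was at -2.06 (SE 0.46, adjusted p = 0.0262), and Lcn2, the iron-siderophore binding lipocalin, at -1.81 (SE 0.36). Mmp8, the neutrophil collagenase, gave -1.25, -1.90, -1.66 and -1.54 and was 2.88-fold lower (-1.52, SE 0.22, adjusted p = 0.000287). Picked after their values were seen, Pglyrp1, a peptidoglycan recognition protein of granules, was at -0.81 (SE 0.18) and Anxa1, a phospholipid-binding protein abundant in neutrophils, at -0.79 (SE 0.16). Ltf, lactoferrin, ranged from -3.81 to -0.37 over the arrays and did not pass (-1.86, SE 0.60, adjusted p = 0.183). Ngp and Lcn2 lost their calls without V449E replicate 2 and without FI-Delta replicate 1, Camp without any of the 4 RNAs, and Pglyrp1 and Anxa1 without any but 1 of them, while Mmp8 kept its call each time.

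Of 21 measured genes in a list of late granule and neutrophil genes, 11 were lower and none was higher, and all 21 were below 0 in both replicates. The 11 include S100a8, S100a9 and the near-identical copies Stfa1 to Stfa3, so they are not all granule proteins or separate observations. Of all 15096 symbols 75 were higher and 128 lower, and 4679 were below 0 in both replicates. All lists were chosen with earlier results of these data known, so their counts are descriptions. The median difference of the late granule list was -0.88, against -0.007 over all symbols. In bulk RNA, fewer cells of a maturing type and less of these RNAs per cell cannot be told apart. In the primary granule list of 12 measured genes 1 was higher and none lower, with a median of 0.12. Its enzyme genes had values on both sides of 0 and did not pass: Prtn3 was at -0.94 (SE 0.36, adjusted p = 0.329), Ctsg at 0.48 (SE 0.18, adjusted p = 0.299), Mpo at 0.0034 (SE 0.19) and Elane at 0.0075 (SE 0.33). Prtn3, Mpo and Elane lie outside the rule for named genes. Fcnb, a ficolin, was at -0.93 (SE 0.25) and did not pass (adjusted p = 0.0749). The member that passed was Cst7, cystatin F, at 0.53 (SE 0.11), whose call was lost without any of the 4 RNAs. Ms4a3, a membrane protein of early granulocyte precursors, was at -1.12 (SE 0.32) and did not pass (adjusted p = 0.106).

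**Figure D2:**
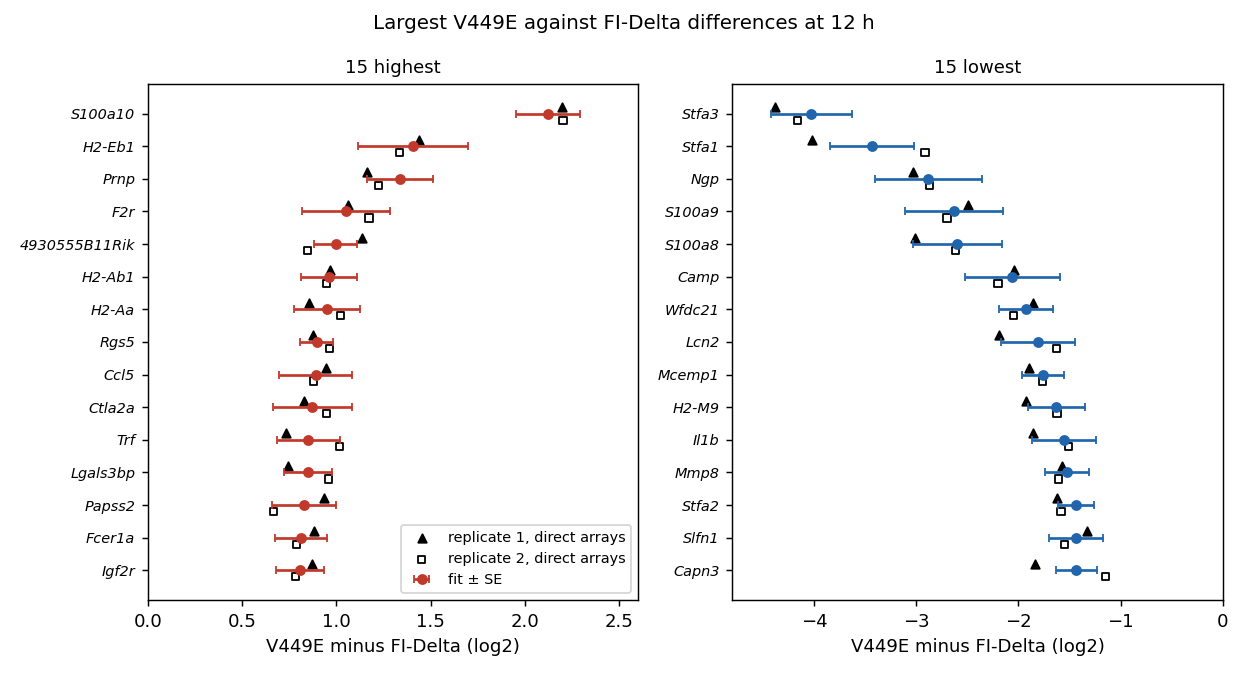
The 15 highest (left) and 15 lowest (right) genes, with the fitted V449E minus FI-Delta difference on the horizontal axis (log2, coloured points, bars 1 SE) and the direct dye-swap mean of each replicate (triangles and squares). Both replicate means lie on the same side of 0 for all 30 genes, as the rule for their choice required. The replicate means differ most for Stfa1, at -4.02 and -2.91.

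The other genes among the 15 lowest have varied roles. Wfdc21, a small secreted whey acidic protein domain protein, was at -1.92 (SE 0.26) and Mcemp1, a membrane protein named from mast cells, at -1.76 (SE 0.21). The arrays of Mcemp1 lay between -1.95 and -1.67. Il1b, the inflammatory cytokine interleukin-1 beta, gave -2.10, -1.61, -1.99 and -1.02 and was 2.93-fold lower (-1.55, SE 0.31, adjusted p = 0.0116). H2-M9, a non-classical MHC class I gene, was at -1.63 (SE 0.28), Slfn1, a schlafen that restrains lymphocyte growth, at -1.44 (SE 0.27), and Capn3, a calcium-dependent protease, at -1.43 (SE 0.20). Further schlafens, picked after their values were seen, were lower as well, Slfn2 at -0.75 (SE 0.15) and Slfn3 at -0.55 (SE 0.12). H2-M9 and Slfn1 lost their calls without V449E replicate 2 and without FI-Delta replicate 1, and Il1b also without V449E replicate 1. Picked in the same way, the cell adhesion gene Ceacam1 was at -1.37 (SE 0.22) and its copy Ceacam2 at -1.34 (SE 0.24).

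The C/EBP transcription factors drive late granule genes during granulocyte maturation. The 250 bases before the starts of 3 genes of the late granule list, whose windows hold a C/EBP-type motif, are shown. The sequences are from RefSeq (GRCm38.p6), read 5′ to 3′ in the direction of the gene, with the motif TTGCNNAA (either strand) in capitals. Stfa1 lies at chr16:36276898-36277147, Ngp at chr9:110419558-110419807 and Mmp8 at chr9:7558179-7558428, all on the plus strand.
Stfa1: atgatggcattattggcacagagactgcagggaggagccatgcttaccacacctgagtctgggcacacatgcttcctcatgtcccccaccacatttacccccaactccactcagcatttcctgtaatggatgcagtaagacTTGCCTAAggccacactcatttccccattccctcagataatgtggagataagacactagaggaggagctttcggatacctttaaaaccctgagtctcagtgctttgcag
Ngp: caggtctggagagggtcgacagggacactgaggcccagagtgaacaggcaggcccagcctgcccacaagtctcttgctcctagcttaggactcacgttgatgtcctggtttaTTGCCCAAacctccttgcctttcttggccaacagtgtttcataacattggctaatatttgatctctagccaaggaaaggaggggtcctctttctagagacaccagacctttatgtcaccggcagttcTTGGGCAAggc
Mmp8: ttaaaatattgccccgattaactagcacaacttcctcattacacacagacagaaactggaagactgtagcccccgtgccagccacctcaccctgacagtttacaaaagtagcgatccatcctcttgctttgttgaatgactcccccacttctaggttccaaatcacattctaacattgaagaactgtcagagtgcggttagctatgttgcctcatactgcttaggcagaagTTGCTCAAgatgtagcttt
The motif begins 109 bases before the start of Stfa1 and 19 bases before that of Mmp8, and it is present at 138 and 11 bases before that of Ngp. Among members of the late granule list with a promoter entry, 7 of 19 hold it (36.8%). Among the 15 lowest genes 5 of 14 do (35.7%), and among all symbols with an entry 2930 of 27025 (10.8%). Stfa2, Stfa3, S100a8 and Camp have an entry without these letters. A match is a run of letters and was not tested for binding.

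Several MHC class II genes were higher in V449E cells. These genes encode the paired chains that present peptides to helper T cells, with partners that load the peptide, and their joint transcription needs the coactivator CIITA. H2-Eb1, a beta chain, gave 1.58, 1.29, 1.30 and 1.37 and was 2.65-fold higher in V449E cells (1.41, SE 0.29, adjusted p = 0.0132). H2-Ab1, the other beta chain, was at 0.96 (SE 0.15, adjusted p = 0.000959), with arrays between 0.84 and 1.09, and its partner alpha chain H2-Aa at 0.95 (SE 0.18). H2-DMa and H2-DMb1, which exchange the peptides in the groove, were at 0.55 (SE 0.10) and 0.54 (SE 0.11). The H2-Ab1 level was 0.51 and 0.70 in the V449E RNAs, against -0.49 and -0.23 in the FI-Delta RNAs.

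Of 10 measured members of the MHC class II and costimulation list, 5 were higher and none was lower, with a median of 0.55 against -0.007 over all symbols. Of all 15096 symbols 75 were higher and 128 lower. H2-Ea, at 0.86 (SE 0.32), did not pass (adjusted p = 0.292), nor did the invariant chain Cd74 at 0.36 (SE 0.21, adjusted p = 0.638). Ciita itself was at 0.25 (SE 0.15, adjusted p = 0.648). The costimulatory ligand gene Cd80 was at -0.34 (SE 0.13) and did not pass. H2-Oa, which restrains H2-DM and was not in the list, was at 0.71 (SE 0.16) and was picked after its value was seen. H2-Eb1 and H2-Aa lost their calls without V449E replicate 2 and without FI-Delta replicate 1, and H2-DMa, H2-DMb1 and H2-Oa also lost theirs in 2 or 3 of these 4 settings, while H2-Ab1 kept its call in all. Class II genes share sequence, and their probes may in part read each other.

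The Y box, an inverted CCAAT motif of class II promoters, is shown for both chains whose RefSeq window holds it (GRCm38.p6, 250 bases before the start, 5′ to 3′ in the gene's direction, CTGATTGG on either strand in capitals). H2-Aa lies at chr17:34287824-34288073 on the minus strand and H2-Eb1 at chr17:34305617-34305866 on the plus strand.
H2-Aa: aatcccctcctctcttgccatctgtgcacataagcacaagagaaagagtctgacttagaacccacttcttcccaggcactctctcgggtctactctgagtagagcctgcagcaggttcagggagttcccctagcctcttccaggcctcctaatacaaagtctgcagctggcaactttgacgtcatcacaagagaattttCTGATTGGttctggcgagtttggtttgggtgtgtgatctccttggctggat
H2-Eb1: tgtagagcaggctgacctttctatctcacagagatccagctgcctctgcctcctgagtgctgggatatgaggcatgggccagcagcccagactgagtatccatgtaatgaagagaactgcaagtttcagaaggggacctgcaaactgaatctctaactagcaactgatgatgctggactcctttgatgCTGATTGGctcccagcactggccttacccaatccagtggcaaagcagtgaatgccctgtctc
The Y box begins 51 bases before the start of H2-Aa and 62 bases before that of H2-Eb1. It was found in 2 of 5 class II list members with an entry and in 1198 of 27025 symbols (4.43%). H2-DMa and H2-DMb1 have an entry without these letters.

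S100a10, an annexin A2 partner at the plasma membrane, had the largest difference among the higher genes. It gave 1.70 and 2.69 on the arrays of replicate 1 and 1.67 and 2.73 on those of replicate 2. Both arrays with V449E in Cy5 were thus lower than both with V449E in Cy3, while the replicate means were 2.19 and 2.20. The fitted difference was 2.12 (SE 0.17, adjusted p = 1.58e-07), or 4.35-fold higher. Its level was 0.99 and 0.97 in the V449E RNAs, against -1.05 and -1.24 in the FI-Delta RNAs.

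Prnp, the prion protein gene, was at 1.34 (SE 0.17, adjusted p = 0.00014), with arrays between 1.04 and 1.39. F2r, the thrombin receptor PAR1, was 2.07-fold higher (1.05, SE 0.23, adjusted p = 0.0235). Its arrays ran from 1.00 to 1.21. Rgs5, a regulator that turns off G protein signals, was at 0.89 (SE 0.09) and the uncharacterised transcript 4930555B11Rik at 1.00 (SE 0.11). Fcer1a, the alpha chain of the high-affinity IgE receptor on mast cells and basophils, was at 0.81 (SE 0.14). It was the 1 gene that passed among 21 measured mast cell and basophil genes, whose median was 0.11. Of all 15096 symbols 75 were higher. Rab27b and the basophil protease gene Mcpt8 were at 0.88 and 0.63 and did not pass.

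The remaining genes among the 15 highest act outside the cell or in sorting and sulfation. Ccl5, a chemokine, gave 1.11, 0.78, 1.09 and 0.66 (0.89, SE 0.19, adjusted p = 0.0206). Trf, the iron carrier transferrin, was at 0.85 (SE 0.17), and its 4 probes lay between 0.66 and 1.06, of which 3 passed. Lgals3bp, a secreted galectin-3 binding protein, was at 0.85 (SE 0.13) and Igf2r, the mannose-6-phosphate receptor that sorts lysosomal enzymes, at 0.81 (SE 0.13). Papss2, which makes the sulfate donor, was at 0.83 (SE 0.17) and Ctla2a, a cathepsin inhibitor, at 0.87 (SE 0.21). Picked after their values were seen, the neighbouring membrane genes Tmem176a and Tmem176b were at 0.54 (SE 0.08) and 0.68 (SE 0.10). With 1 of the 4 RNAs left out in turn, F2r, Ccl5, Papss2 and Ctla2a lost their calls each time, Trf in 3 settings, Lgals3bp without V449E replicate 2 and Fcer1a without FI-Delta replicate 1.

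Survival genes of the Bcl2a1 cluster, which encode copies of an anti-apoptotic BCL2 relative, were the members that passed in the BCL2 family and death list. Bcl2a1c was at -1.16 (SE 0.20, adjusted p = 0.0025), Bcl2a1a at -1.13 (SE 0.21) and Bcl2a1d at -1.03 (SE 0.15). The copies are near-identical and may be read by each other's probes, so these are not 3 separate observations. Bcl2a1a lost its call without V449E replicate 1 and without FI-Delta replicate 1, Bcl2a1c without FI-Delta replicate 1, and Bcl2a1d kept it. In the list's 25 measured genes 3 were lower and none was higher, with a median of -0.004. Over all 15096 symbols 128 were lower and 75 higher. The array of replicate 1 with V449E in Cy5 gave -1.74 for Bcl2a1a and -1.4 for Bcl2a1d, apart from their other arrays.

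Some other myeloid effector genes were lower too. Of all 15096 symbols 75 were higher and 128 lower, and 4679 were below 0 in both replicates. In the NADPH oxidase list all 5 measured genes were below 0 in both replicates, and 2 passed: Cybb, the catalytic subunit, at -1.10 (SE 0.26, adjusted p = 0.0344) and Rac2, the small GTPase that activates it, at -0.32 (SE 0.07). Cybb did not pass on the direct arrays alone (adjusted p = 0.0554), nor without V449E replicate 1 (0.207), V449E replicate 2 (0.119) or FI-Delta replicate 1 (0.435). In the macrophage list of 42 measured genes 1 was higher and 2 were lower, with a median of -0.035. Itgam, the integrin subunit CD11b, was at -0.89 (SE 0.19) and Fcgr1, a high-affinity IgG receptor, at -0.73 (SE 0.14), while the transcription factor Maf was higher at 0.41 (SE 0.10). Klk1b24 was at -0.52 (SE 0.09), the 1 of 3 measured genes that passed in a list of Klk1 and Klk1b kallikreins. Rac2 and Maf lost their calls without any of the 4 RNAs, Itgam and Fcgr1 without any but FI-Delta replicate 2, and Klk1b24 without V449E replicate 2.

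Single genes also passed, each the only member of its list to do so, beside 1.34% of all symbols. The lists held 23 measured genes for Mxd1, 27 for Phlda1, 21 for Atf5, 21 for Ikzf2 and 12 for Gsr. Their medians were -0.077, -0.026, 0.066, 0.026 and -0.024, so the lists as a whole lay near 0. Mxd1, a MYC antagonist of maturing cells, was at -1.02 (SE 0.23, adjusted p = 0.0276), with arrays from -1.72 to -0.52. Phlda1, an ERK-induced gene, was at -0.85 (SE 0.11), and Atf5, a stress-responsive transcription factor, at -0.83 (SE 0.11, adjusted p = 0.000188). Ikzf2, the zinc finger factor Helios, was higher at 0.58 (SE 0.14, adjusted p = 0.0464). Gsr, glutathione reductase, was at -0.52 (SE 0.13). Phlda1 and Atf5 kept their calls with each of the 4 RNAs left out, Gsr lost its call each time, Mxd1 in 3 settings and Ikzf2 in 2. The C/EBP genes Cebpa, Cebpb and Cebpd, picked for their role, did not pass. They were at 0.48 (SE 0.17), -0.50 (SE 0.13) and -0.27 (SE 0.17). Cebpe was not among the measured list members.

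**Figure D3:**
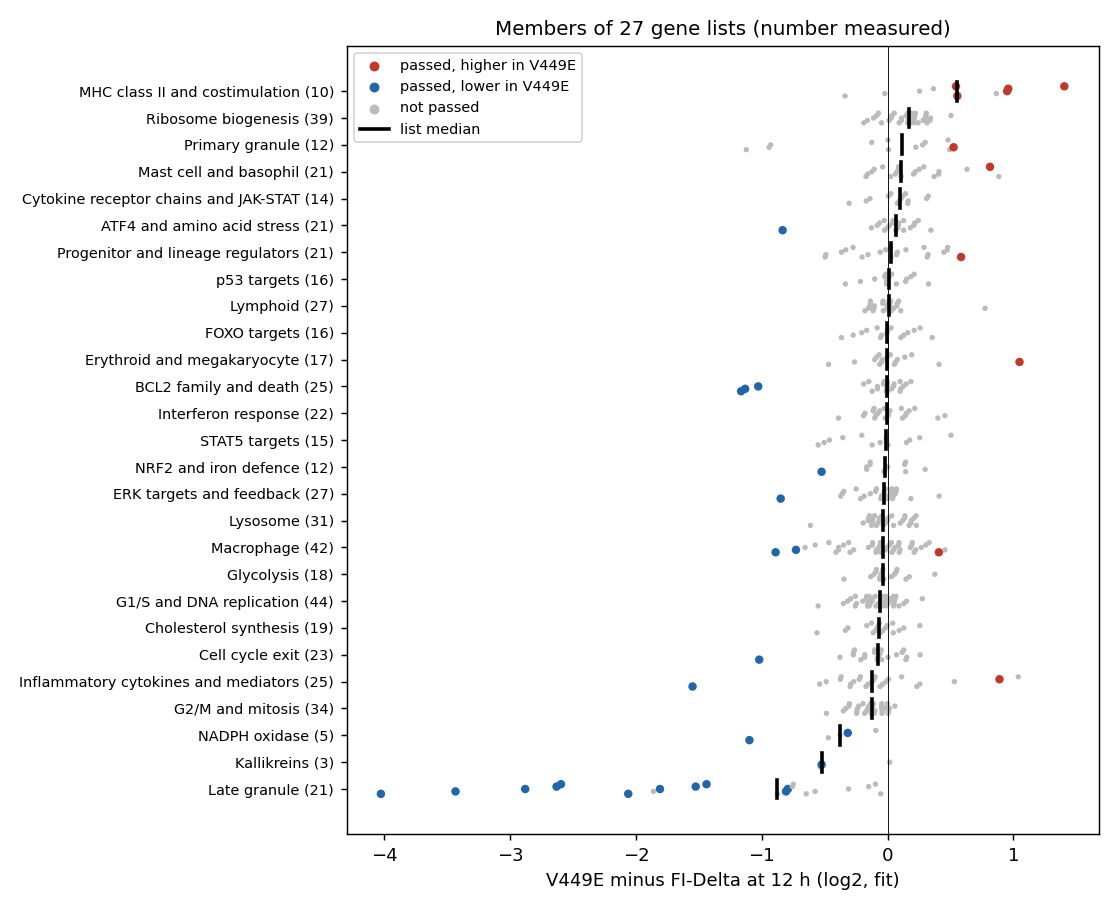
Fitted V449E minus FI-Delta differences (log2, horizontal axis) of the measured members of 27 gene lists, 1 list per row with its number of genes, ordered by median (black bars). The late granule list, which also holds stefin and calprotectin genes, reaches down to -4.03 (Stfa3) with 11 of 21 passing (blue). In the MHC class II and costimulation list 5 of 10 genes pass above 0 (red). Most other lists lie around 0. Of all 15096 symbols 128 pass below 0 and 75 above 0.

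No member passed in 12 of the 27 lists. Among them were cytokine receptor chains, STAT5 targets, DNA replication, mitosis, ribosome biogenesis, glycolysis, lysosome and lymphoid genes. As only 1.34% of all symbols passed, lists of this size can hold none by that share alone, and nothing is read from it. Of 14 measured receptor and JAK-STAT genes, Csf2ra, the GM-CSF-binding chain, was at -0.31 (SE 0.15, adjusted p = 0.538). The IL-3-specific mouse beta chain gene Csf2rb2 was at 0.32 (SE 0.22), Il3ra at 0.09, Il5ra at 0.16, Csf3r at -0.14 and Il6ra at 0.01. Ifngr1 was at 0.11, Kit at 0.08, Epor at -0.17 and Flt3 at 0.03. Jak1 and Jak2 were at 0.16 and 0.14, Stat3 at 0.12 and Stat5a at 0.31. The median of 34 mitosis genes was -0.12 and that of 44 replication genes -0.064, with Mki67 at -0.49 (adjusted p = 0.183) and Rrm2 at -0.55 (adjusted p = 0.194).

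Some STAT5 targets and ribosome biogenesis genes were lower at 12 than at 0 hours within each line. The 12-hour RNAs of each line are shared between these changes and the comparison of the lines, so the values are set side by side. When the change from 0 to 12 hours was tested between the lines in limma, no feature passed. Passing in 1 line alone is thus not a difference between the lines. Of 15 STAT5 targets 6 were lower than at 0 hours in V449E cells and none was higher, while 6 were lower and 1 was higher in FI-Delta cells. The list's medians were -0.42 in V449E cells and -0.30 in FI-Delta cells. Over all features 0.756% were lower in V449E cells and 3.36% in FI-Delta cells. The feedback inhibitor Cish was at -0.94 in V449E cells (SE 0.19, adjusted p = 0.0125) and at -0.36 in FI-Delta cells (SE 0.19, adjusted p = 0.301). Of 39 ribosome biogenesis genes 4 were lower in V449E cells and 26 in FI-Delta cells, with medians of -0.22 and -0.41. Nop56, a box C/D snoRNP core protein, was at -0.39 in V449E cells (SE 0.15, adjusted p = 0.231) and at -1.12 in FI-Delta cells (SE 0.15, adjusted p = 0.000122).

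At 12 hours the ribosome biogenesis list stood at a median of 0.17, above 0 in both replicates for 28 of 39 genes, and no member passed. Of all 15096 symbols 4516 were above 0 in both replicates. Nop56 was at 0.50 (SE 0.15, adjusted p = 0.117) and Brix1, a factor of large subunit assembly, at 0.30 (SE 0.08, adjusted p = 0.064). Of these 39 genes 17 had an unadjusted p under 0.05 in limma, beside 9.92% of all features. Genes of a list can move together in the same RNAs, and the list was chosen with earlier results known. The count is thus a description and not a test of the list. Myc, which drives this programme, was at 0.50 (SE 0.16, adjusted p = 0.155).

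**Figure D4:**
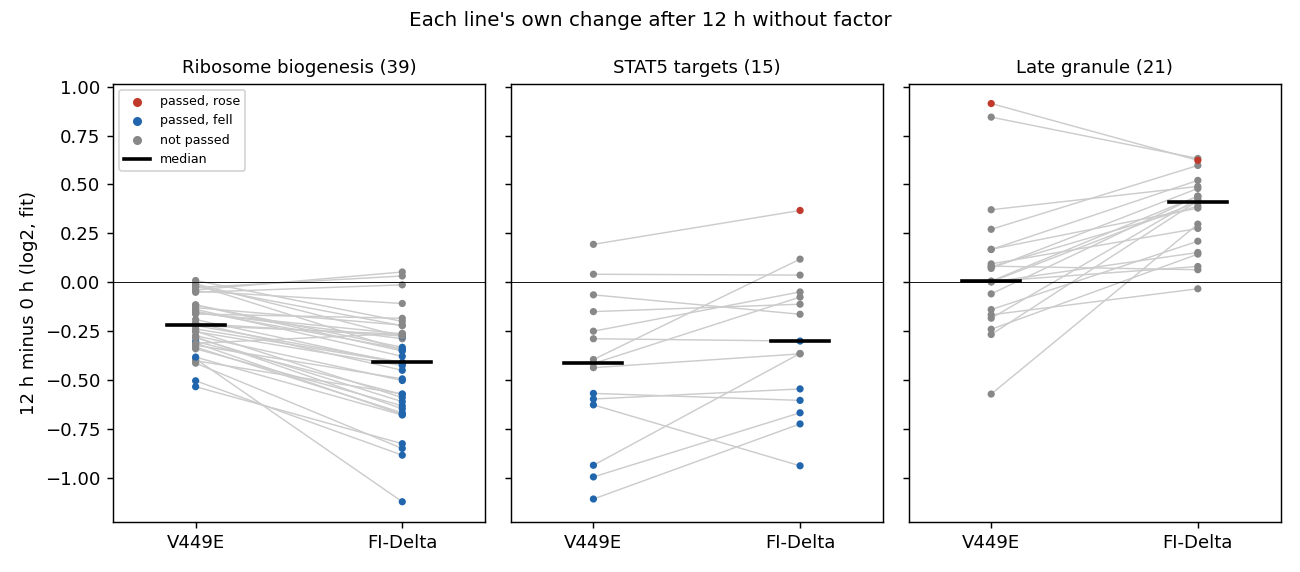
Change from 0 to 12 hours (log2, vertical axis) in V449E cells (left) and FI-Delta cells (right) for the ribosome biogenesis, STAT5 target and late granule lists. A line joins each gene and a black bar marks the median. The ribosome biogenesis medians are -0.22 in V449E cells and -0.41 in FI-Delta cells, and the late granule medians are 0.005 and 0.41.

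The study also compared both lines at 0 hours, still in IL-3, which asks how much of the 12-hour difference was there before the factor was removed. On the 4 arrays of that comparison, 68 of the 75 higher genes were above 0 in both replicates. Of the 128 lower genes, 124 were below 0 in both. These arrays hold other RNAs, but the 12-hour fit that chose the genes draws on them through indirect paths. Both counts are therefore descriptions, and the matching counts over all symbols were not made at 0 hours. At 0 hours 16 of the higher genes passed (0.114% of all features were higher then), and 20 of the lower genes (0.119%). The median difference of the higher genes was 0.32 at 0 hours and 0.53 at 12 hours. That of the lower genes was -0.35 at 0 hours and -0.64 at 12 hours. These genes were chosen for passing at 12 hours, which favours larger differences at that time, so the pairs of medians are descriptions. So are the counts passing at 0 hours, which share each gene's estimate of spread with the 12-hour comparison.

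S100a10 was at 2.24 (SE 0.17) at 0 hours and Prnp at 1.55 (SE 0.17), both at least as large as at 12 hours. Stfa3 was at -3.59 (SE 0.40), S100a9 at -2.51 (SE 0.48) and Lcn2 at -2.02 (SE 0.36). Genes that lay nearer to 0 at 0 hours included Atf5 at -0.05 (SE 0.11), Ccl5 at 0.17 (SE 0.19), F2r at 0.32 (SE 0.23) and Mmp8 at -0.65 (SE 0.22).

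No feature passed when the difference at 12 hours was tested against that at 0 hours in limma, and 307 had an unadjusted p under 0.05 (1.52%). The direct arrays alone called 1 feature. The interaction of Atf5 was -0.78 (SE 0.16), that of Mmp8 -0.87 (SE 0.30), and those of Ccl5 and F2r were 0.72 (SE 0.28) and 0.73 (SE 0.33). None of these passed. For the 15 lowest genes the interactions lay between -0.87 and 0.21, and for the 15 highest between -0.21 and 0.73. The median SE of an interaction was 0.126. Against 6 hours no feature passed either (288 at an unadjusted p under 0.05, 1.42%, and 0 on the direct arrays alone). Against 24 hours 1 feature passed (0.00494%), and it carries no single symbol.

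The same genes can be followed to later times. These comparisons are of other RNAs, and the genes were chosen at 12 hours. The fit that chose them also draws on arrays of the other times through indirect paths, so the times are not separate measurements. All times come from the same fit and share each gene's estimate of spread. A gene that passed at 12 hours partly through a small spread can thus pass more easily at other times, so the counts are descriptions. All 15 lowest genes passed at 6 hours (0.45% of all features were lower then), 24 hours (1.9%), 48 hours (4.7%) and 72 hours. In either direction 0.232% of features passed at 0 hours, 0.805% at 6 hours, 3.2% at 24 hours, 8.25% at 48 hours and 16.8% at 72 hours. Of the 15 highest genes 10 passed at 6 hours (0.356% of all features were higher then), and 14 at 24 hours (1.3%), 48 hours (3.55%) and 72 hours. At 72 hours 64 of the 75 higher genes passed (9.04% of all features were higher then) and 124 of the 128 lower genes (7.78%). H2-Eb1 was at 2.46 (SE 0.29) at 72 hours, F2r at 2.69 (SE 0.23), Fcer1a at 2.14 (SE 0.14) and Camp at -3.23 (SE 0.46). Ccl5, by contrast, was at 0.44 (SE 0.19) at 72 hours, and S100a10 was at 2.22 (SE 0.17).

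**Figure D5:**
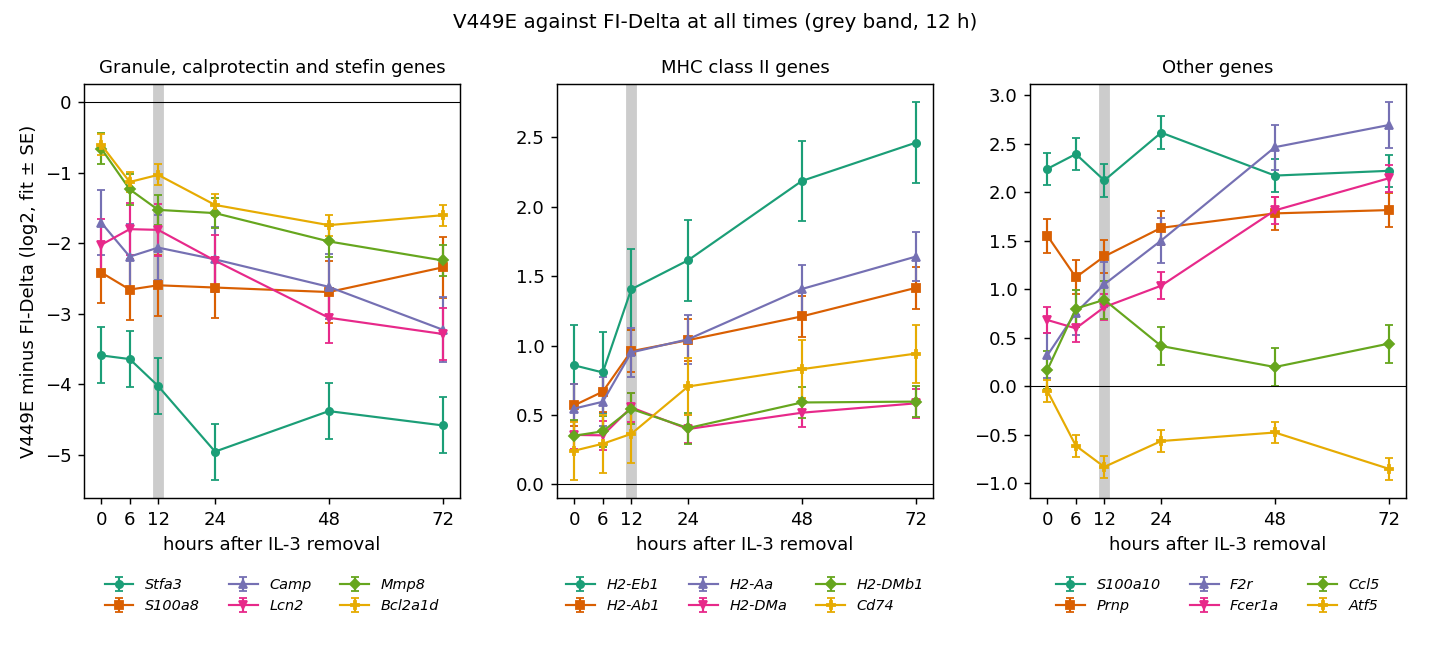
Fitted V449E minus FI-Delta difference (log2, vertical axis, bars 1 SE) against hours after IL-3 removal for 6 granule, calprotectin, stefin and survival genes, 6 MHC class II genes and 6 other genes, with 12 hours marked by a grey band. S100a10 lies between 2.12 and 2.61 at all times, H2-Eb1 is at 1.41 at 12 hours and 2.46 at 72 hours, and Atf5 is near 0 at 0 hours and at -0.83 at 12 hours.

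Within the lines, 1.34% of all features differed between 12 and 0 hours in V449E cells and 5.21% in FI-Delta cells. Tested between the lines in limma, these changes passed for no feature. The genes below were chosen on the same 12-hour RNAs that enter these changes, which favours changes in the direction of the choice, so the counts are descriptions and nothing is read from them against the shares of all features. Of the 128 lower genes, 2 were higher at 12 than at 0 hours in V449E cells (0.583% of all features) and 23 in FI-Delta cells (1.84%), and none was lower in either line. Of the 75 higher genes, 4 were higher and 1 was lower in V449E cells (0.756% of all features were lower), and 1 was higher and 9 were lower in FI-Delta cells (3.36%). Mcemp1 was at 0.27 in V449E cells (adjusted p = 0.763) and at 0.86 in FI-Delta cells (SE 0.21, adjusted p = 0.0184). Atf5 was at -0.35 in V449E cells (adjusted p = 0.141) and at 0.44 in FI-Delta cells (adjusted p = 0.0242). F2r was at -0.66 in V449E cells (adjusted p = 0.188) and at -1.40 in FI-Delta cells (SE 0.23, adjusted p = 0.00118). Ccl5 was at 0.88 in V449E cells (adjusted p = 0.0247) and at 0.15 in FI-Delta cells (adjusted p = 0.748). Abca1, a cholesterol exporter picked after its value was seen, was 0.81 higher in V449E cells and 0.43 in FI-Delta cells, and both passed.

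Parental cells kept in GM-CSF for 12 hours give another point for the FI-Delta values. The FI-Delta RNAs of 12 hours enter both this comparison and the main one, so no overlap is drawn. FI-Delta minus parental differences of the 15 lowest genes ran from 0.58 to 1.88, and 3 of these genes passed (0.237% of all features were higher): Mmp8 at 1.53, Mcemp1 at 1.12 and Capn3 at 1.08. S100a10 was lower in FI-Delta cells than in these parental cells, at -1.19 (adjusted p = 0.00163), as were 0.0741% of all features. Features that passed in either direction made up 0.311%. The S100a10 level was -0.19 and 0.28 in the parental RNAs.

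Some calls rest on few arrays, and 3 genes picked after their values were seen show this. Slc25a38, a mitochondrial glycine carrier, gave 0.01, -0.10, -2.33 and -0.17, and its fitted difference of -0.47 became -0.092 without V449E replicate 2 and -0.082 without FI-Delta replicate 2. Zfp710, a zinc finger gene, gave -0.26, 0.11, -1.93 and -0.33, and its difference of -0.47 became -0.084 without V449E replicate 2 and -0.21 without FI-Delta replicate 2. Necap1, an endocytosis adaptor gene, gave 0.10, 1.67, 0.31 and 0.20, and its difference of 0.46 became 0.18 without V449E replicate 1. In contrast, 13 of the 30 genes with the largest differences passed under all 11 alternatives tried, among them S100a10, Prnp, Rgs5, H2-Ab1, Mcemp1, Mmp8 and Stfa1 to Stfa3.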

How the data were processed

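Total RNA was labelled indirectly and hybridised on 2-colour spotted arrays, per the labels' protocols. The authors deposited 1 log ratio per probe and array, normalised by a method not given in the sources used here. Per the labels, probes from print run 2 and print run 1 were afterwards brought to a common order. The submitters' processing notes name limma without a version. The deposited values are likely log2 of Cy5 over Cy3, but neither the base nor the direction is stated. The number of arrays limits the precision.

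Of 23040 probes, 1243 controls were left out, and probes of a symbol were averaged, which gave 20242 features with 15096 symbols. The 58 dye-swapped pairs of the series were averaged, and 36 RNA levels were solved by least squares, replicate by replicate (18 conditions, n = 2 each). The V449E RNA of 12 hours lay on 8 arrays and the FI-Delta RNA on 12, so each difference also uses indirect paths. It correlated with the mean of the 4 direct arrays at r = 0.955 across features. Levels were fitted with limma 3.58.1 (R 4.3.3, lmFit and eBayes) with the replicate number as a block. Each feature has 1 estimate of spread, pooled over the 36 RNAs and shared by all comparisons. Tests were 2-sided with Benjamini-Hochberg adjustment over all features, and passing means an adjusted p under 0.05. The deviations of the 2 RNAs of 12 hours from their group means correlated at r = 0.277 within replicate numbers. The fit was tested on simulated data in which noise was drawn separately for each RNA and array. That setting leaves out deviations shared within a replicate number, so it says nothing about their effect on the calls.

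Named genes were the 15 highest and 15 lowest that passed with both replicate means of that sign, the 4 of smallest p in each of 27 lists, and all receptor list members. Ltf, H2-Ea, Cd74, Ciita, Cd80 and the genes marked in the text lie outside that rule. The members and lists were chosen with earlier results of these data known. Promoter sequences are from RefSeq (GRCm38.p6), and the motifs were chosen in the same way; promoters of 1 chromosome were left out.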

Additional observations from a re-analysis of the deposited data

Results flagged for a closer look

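In 9 of 168 genes checked, 1 of the 4 direct arrays lay apart from the other three, by a gap that exceeds Dixon's 95% critical value for 4 values. Chance alone gives this in about 1 of 20 groups. In replicate 1 with V449E in Cy5, the array standing apart gave -1.74 for Bcl2a1a, -1.4 for Bcl2a1d, 0.417 for Brix1, 0.19 for Flt3 and -0.91 for Kif23. In the same replicate with V449E in Cy3 it gave 1.67 for Necap1. In replicate 2 with V449E in Cy5 it gave -1.4 for Kit and -2.33 for Slc25a38, and with V449E in Cy3 it gave -0.256 for Prf1. The other arrays of Kit lay between 0.168 and 0.46, and those of Slc25a38 between -0.168 and 0.0068. The causes were not tested.

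The difference between the lines changed between 12 and 24 hours for 1 feature with no single symbol. It was -0.0604 at 12 hours and -0.919 at 24 hours, so that the difference at 12 hours minus that at 24 hours was 0.859 (SE 0.111, limma adjusted p = 0.0017).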

How the results depend on the processing

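The number of features that passed was 223. It was 276 with no replicate block (all 223 among them), 326 on the direct arrays alone (193 shared), 201 on print run 1, 170 with arrays scaled to the same median absolute deviation, 219 with arrays centred on their medians, 241 for single probes, 220 among features with 1 symbol and 216 with a robust variance prior. Leaving out 1 RNA gave 72 to 177, with 54 of the 223 still passing without V449E replicate 2 and 57 without FI-Delta replicate 1. The change of the difference since 0 hours had 0 features in the main fit, 1 on the direct arrays alone and 0 to 2 with 1 RNA left out. Since 6 hours it had 0, and 0 to 1 with 1 RNA left out. Against 24 hours it had 1, but 6 on the direct arrays alone, 0 on print run 1, 0 with scaled arrays, 0 among features with 1 symbol, and 0 to 6 with 1 RNA left out. The causes were not tested, except that fewer samples or features enter where some are left out. None of the 168 genes changed sign under an alternative where it passed in the main fit or in that alternative. Sign changes of genes that passed in neither were not counted. With no replicate block 0 of the 168 lost their call and 3 gained it; 46 lost it without V449E replicate 2 and 45 without FI-Delta replicate 1. Of the 30 genes with the largest differences, Ngp, S100a8, S100a9, Lcn2, Slfn1, H2-Eb1, H2-Aa and H2-M9 did not pass in these last 2 settings, and Camp failed in 6 of 11 settings, Ctla2a in 7 and F2r in 5.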

Other observations

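Of the 203 gene symbols that passed, 168 were in none of the 27 lists. The genes below are single genes among these, picked after their values were seen, with no count of how many genes of their kind were measured. The actin crosslinker Actn1 was at -0.78 (SE 0.11), the actin gene Actg1 at -0.54 (SE 0.11), and Cap1, which recycles actin monomers, at -0.66 (SE 0.13). Actr3, a subunit of the branching ARP2/3 complex, was at -0.38 (SE 0.09), the adhesion protein gene Vcl at -0.42 (SE 0.10) and the formin Fmnl1 at -0.40 (SE 0.09). Pgd and G6pd2, enzymes of the pentose phosphate pathway, were at -0.70 (SE 0.16) and -0.51 (SE 0.10), picked in the same way.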
